A study of Mus musculus with 20 samples.

Results

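The 14 lung metastases of a mouse sarcoma series were ordered by how much transcript of normal lung epithelium each carried, and the 7 highest were set against the 7 lowest. The members were chosen by a measured value. Each metastasis was scored by the mean log2 CPM (counts as a rate per sequenced total, corrected for library composition by TMM, with 2 counts added before the logarithm) of Sftpc and Sftpb, the surfactant proteins C and B of alveolar type 2 cells, Scgb1a1, the secretoglobin of club cells, Nkx2-1, the transcription factor of lung epithelium, and Epcam, an adhesion protein of epithelia. These 5 genes selected the groups and are left out of the results. They, 7 called lung-rich and 7 called lung-poor, stand among 20 libraries, and the other 6 are primary tumours.

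The series asked how the long non-coding RNA NEAT1 relates to sarcoma metastasis and RNA splicing. Total RNA of 6 primary tumours and of lung metastases matched to them by number was depleted of ribosomal RNA and sequenced with strand information. All 20 libraries carry the same genotype label, "Mixed background", and the same tissue label, "Mouse tumor tissues". No treatment, driver allele, time, age, sex or tumour site is given, and nothing states how much lung was dissected away from a nodule or whether metastases of 1 set grew in different mice. P-values therefore reflect only how far these samples spread, which may be technical. A metastasis is named by its primary tumour and its own number, so that 2-3 is the third metastasis matched with primary tumour 2, and the single, unnumbered metastasis of primary tumour 5 is written 5-x.

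A nodule in the lung is cut out together with some of the organ around it. Normal lung contributes alveolar type 2 cells, which make surfactant, flat type 1 cells, club and ciliated cells of the airways, a dense capillary bed, specialised fibroblasts, alveolar macrophages and blood. Genes of these cells are the usual gauge of how much host tissue a bulk library holds. In such a bulk sample, fewer cells of a type and less RNA per cell cannot be told apart.

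The lung score ran from 4.80 to 8.48 in the lung-rich metastases, with a median of 6.32, and from -1.03 to 4.79 in the lung-poor metastases, with a median of 4.08. The primary tumours scored between -3.25 and 0.60. The highest scores were those of 1-1 (8.48) and 5-x (7.99), and the lowest were those of 2-4 (-1.03) and 2-3 (-0.02), both inside the range of the primary tumours. The limit fell between 6-2 inside the lung-rich group and 6-1 outside it, which differed by 0.0024, so that pair was divided by next to nothing. Sets 1 and 2 gave 2 metastases to each group and set 6 gave 1 to each, whereas both metastases of set 3 were lung-poor and those of sets 4 and 5 were lung-rich. Ranking by 69 other genes of lung epithelium placed 12 of the 14 metastases in the same group, with 3-1 and 6-2 exchanged. On genes the score did not use, the index of 23 general epithelial genes was at least 0.75 in every metastasis and at most -0.47 in the primary tumours. That list is not particular to lung, so it cannot check for lung tissue in 2-3 and 2-4, whose liver transcripts are described next. The type 2 cell index of the lung-poor metastases started at 1.45, inside the primary range, which reached 2.68.

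The lung-poor metastases 2-3 and 2-4 went against the label. They held transcripts of hepatocytes, the liver's main cell type, a list of 24 genes chosen after its values were seen. Its mean log2 CPM was 9.06 in 2-3 and 5.65 in 2-4, against -1.85 to 0.22 in the other 12 metastases and -3.53 to -0.43 in the primary tumours. In both libraries 22 of the 24 genes exceeded all 18 other libraries, and how many of all genes did so was not counted. Alb, serum albumin, reached 7622 CPM in 2-3 and 942 CPM in 2-4, and at most 7.92 CPM elsewhere. Apob, the apolipoprotein of liver-made lipoproteins, reached 2644 and 152 CPM, against at most 7.41 CPM elsewhere (Alb, Apob and Ahsg, the plasma glycoprotein fetuin-A at 1763 and 99.4 CPM, were named after their values were seen). List medians, counts of calls and the genes that depend most on 2-3 and 2-4 are given with and without them, and the part of liver transcripts in each was not tested.

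**Figure D1:**
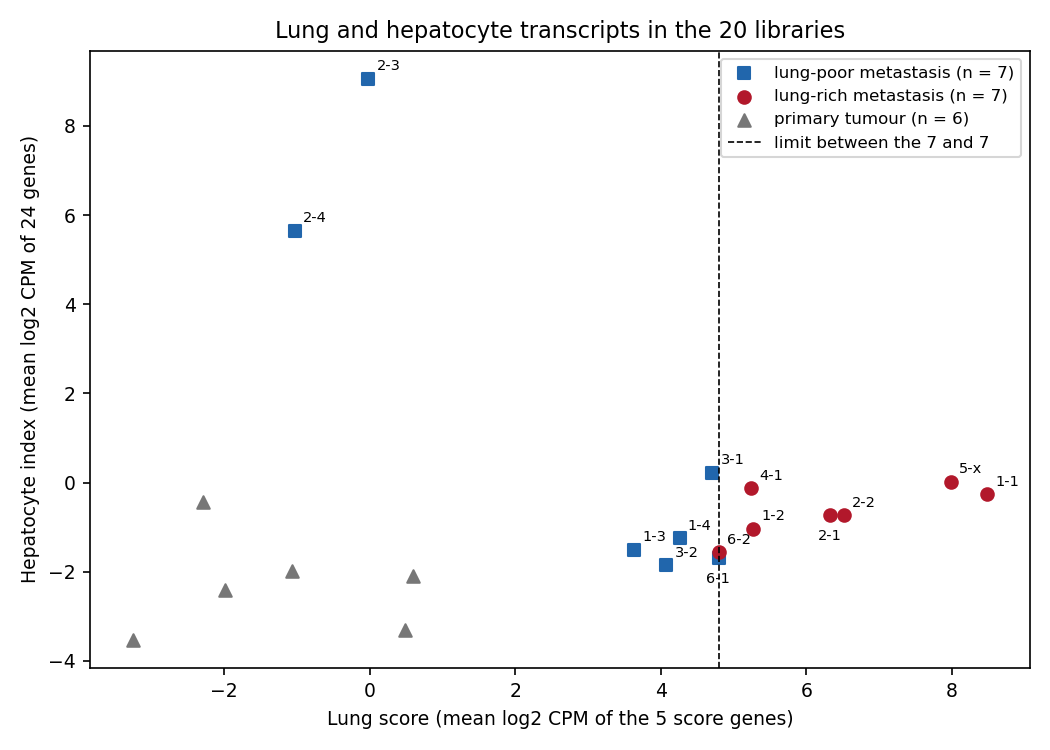
Lung score (x axis, mean log2 CPM of the 5 score genes) against hepatocyte index (y axis, mean log2 CPM of 24 genes) in the 20 libraries, with lung-rich metastases, lung-poor metastases and primary tumours in separate symbols and the limit between the 7 and 7 as a dashed line. Metastases 2-3 and 2-4 stand alone at 9.06 and 5.65 on the y axis, and 6-1 and 6-2 lie on either side of the line.

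Other libraries stood apart in ways that touch the comparisons. Depth was 28722243 to 35517893 counts in lung-rich, 20603620 to 32641807 in lung-poor and 26287783 to 36824370 in primary libraries, so that a count of 0 allows up to 0.0801 to 0.16 CPM (3 counts, counting error only). Primary tumours 4 and 6 held little macrophage and endothelial transcript: the mean log2 CPM of 20 macrophage genes was 0.07 and 1.43 there, against 6.84 to 7.66 in the other 4 primary tumours, and that of 22 endothelial genes was -0.91 and -0.01, against 4.28 to 5.35. Deviations from the median library followed the GC content of transcripts in 4-1 (Spearman's rho -0.87 across 7912 genes), 3-2 (-0.76) and primary tumour 4 (-0.76), against -0.30 to 0.55 in the others. Mitochondrial transcripts took 12.9% of counts in 3-1, 8.22% in 4-1, 7.93% in 3-2 and 6.21% in primary tumour 4, against 1.18% to 4.18% elsewhere. Genes in the first 30 Mb of chromosome 1 lay above their median library in 2-3, by a median of 2.48 on the log2 scale over 37 genes, and less so in primary tumour 4 (1.42), 3-1 (1.04), 3-2 (0.85) and 4-1 (0.78).

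Metastases of 1 set were not always the most alike. Log2 CPM of 6-1 and 6-2 correlated at 0.996 across genes, and their counts spread 2.85 times as widely as sampling noise, so they were near copies but not the same library. Those of 2-1 and 2-2 correlated at 0.991, and their counts spread 2.96 times as widely as sampling noise, so they too were near copies. The next closest pair, 1-3 and 2-2, had a spread of 6.62. Both pairs of near copies were counted as separate samples in the tests. Either of 2-1 and 2-2 correlated with 2-3 and 2-4 at 0.812 to 0.853 only. Metastasis 2-4 was closest to 6-1, at 0.960. Set 2 thus split along the lung score into a pair with alveolar transcripts and a pair with liver transcripts.

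A pair of promoters stands for the host tissues that these libraries hold, alveolar epithelium and, against the label, liver. These are the 250 bases before the start of Lamp3, whose protein sits on the lamellar bodies of type 2 cells, at chr16:19706366-19706615 on the minus strand, and the 250 bases before the start of Alb, at chr5:90460620-90460869 on the plus strand (RefSeq, GRCm38.p6). Capitals mark the match to TGTTTAC, a core of forkhead factor sites, in Lamp3 and to GTTAAT, a half-site of HNF1 factors, in Alb, each searched on both strands.
Lamp3: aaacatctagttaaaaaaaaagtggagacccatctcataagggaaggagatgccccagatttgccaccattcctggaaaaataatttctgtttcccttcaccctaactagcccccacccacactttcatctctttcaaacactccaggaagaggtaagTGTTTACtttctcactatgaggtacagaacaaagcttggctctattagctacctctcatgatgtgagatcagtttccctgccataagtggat
Alb: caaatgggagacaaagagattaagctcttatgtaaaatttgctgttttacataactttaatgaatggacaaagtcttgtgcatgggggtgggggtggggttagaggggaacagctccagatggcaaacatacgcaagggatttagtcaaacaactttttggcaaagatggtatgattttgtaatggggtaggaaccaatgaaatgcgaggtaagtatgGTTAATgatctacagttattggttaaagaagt
TGTTTAC was present in 3.09% of 27025 mouse promoters of this length, in 2 of the 9 promoters matched for type 2 cell genes and in 2 of the 20 matched for hepatocyte genes. GTTAAT was present in 6.52% of all promoters, in 6 of the 20 for hepatocyte genes and in 1 of the 9 for type 2 cell genes. A match describes the letters only.

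No gene passed edgeR's adjusted test between the 2 groups. The quasi-likelihood test called 0 of 17256 genes (0%) at an adjusted p under 0.05, and the smallest adjusted p was 0.262. At an unadjusted p under 0.05, 989 genes were higher and 858 lower in lung-rich metastases. DESeq2 called 181 higher and 87 lower, whereas limma's voom with the matched set as a correlated group called 0, with 1479 and 999 below an unadjusted p of 0.05. The median log2 fold change of all genes was -0.02.

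Using the score itself as a continuous term in place of the 7 and 7, edgeR called 636 genes higher with the score (3.69%) and 229 lower (1.33%). Leaving out 2-3 and 2-4, that fit called 382 higher (2.14%) and 0 lower (0%) of 17819 genes, where 1470 and 766 had an unadjusted p below 0.05, and no other tool was run on it. No downward call was left once the 2 libraries with hepatocyte transcripts were out. The same libraries gave both the score and the expression values, so these calls only describe which genes ran along with the score that chose the groups, and they are no independent test of any gene or list.

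Genes of alveolar type 2 cells differed most. The score that chose the groups holds genes of these cells and of other lung epithelium. Values here and in the next paragraph therefore describe that choice and are no test. All 12 tested genes of the list had a positive fold change of lung-rich over lung-poor, with a median of 2.58 on the log2 scale (2.36 without 2-3 and 2-4), against -0.02 for all genes. Lamp3 (chromosome 16, 19653378 to 19706375, minus strand) ranged from 4.63 CPM through a median of 99.1 to 377 CPM in lung-rich metastases, and from 0 through 1.34 to 8.98 CPM in lung-poor ones. The 5 metastases 1-1, 2-1, 2-2, 4-1 and 5-x stood between 95.2 and 377 CPM, while 1-2 and 6-2 lay among the lung-poor ones. Its log2 fold change was 5.61 (SE 1.19), and 5.13 without 2-3 and 2-4. Muc1, the mucin of the apical membrane, had medians of 19.7 and 2.82 CPM and a log2 fold change of 2.94 (SE 0.66), and 2.55 without 2-3 and 2-4. Ctsh, the cathepsin that trims surfactant proteins, had medians of 190.1 and 46.8 CPM and a log2 fold change of 2.14 (SE 0.45), with ranges that overlapped from 34.4 to 80.2 CPM.

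Fold changes in the remaining lung epithelium were mostly positive and smaller. Of the 4 lists DESeq2 called 1 type 1 cell and 3 general epithelial genes, and edgeR called 0, with 10 type 1, 1 club, 3 ciliated and 12 general epithelial genes higher below an unadjusted p of 0.05. Of all 17256 genes, DESeq2 called 181 higher, and edgeR had 989 higher below that p. Type 1 cell genes had positive fold changes in 16 of 16, with a median of 1.04, and Cldn18, a tight-junction claudin of the alveolus, had medians of 70.3 and 15.0 CPM. Club and secretory cell genes were positive in 12 of 15, with a median of 1.09, and ciliated cell genes in 19 of 22, with a median of 1.06. General epithelial genes were positive in 20 of 23, with a median of 1.56, among them Cdh1, E-cadherin, at medians of 49.9 and 22.7 CPM. These lists overlapped between the groups: the type 1 cell index reached 5.47 in lung-poor metastases, above the lung-rich median of 5.34, and the club cell index reached 5.43, above the lung-rich median of 3.30. The medians of the type 1, club, ciliated and general epithelial lists were 1.05, 1.03, 0.75 and 1.31 without 2-3 and 2-4. Without set 1 the club and ciliated medians turned to -0.41 and -0.16.

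Fold changes of vessel, fibroblast and pleura genes were mostly positive too, though neither edgeR nor DESeq2 called any of them. Lung mesenchyme genes were positive in 18 of 20 (median 1.42), capillary genes in 11 of 12 (1.23), general endothelial genes in 21 of 22 (0.98) and mesothelial genes in 11 of 11 (0.56). At edgeR's unadjusted p under 0.05, 8, 7, 11 and 1 of them were higher, beside 989 of all 17256 genes. Without 2-3 and 2-4 the medians were 0.98, 1.03, 0.95 and 0.43. Car4, the carbonic anhydrase of lung capillaries, ranged from 2.15 through 3.34 to 26.1 CPM in lung-rich and from 0 through 1.93 to 3.15 CPM in lung-poor metastases. Metastasis 1-1 had the highest indices of these lists, 6.51 for capillaries and 6.01 for mesenchyme, against at most 4.51 and 3.90 in the other 6 lung-rich metastases. Kdr, the main receptor for vascular endothelial growth factor, had medians of 52.0 and 25.1 CPM and a log2 fold change of 1.11 (SE 0.34, edgeR adjusted p = 0.378).

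**Figure D2:**
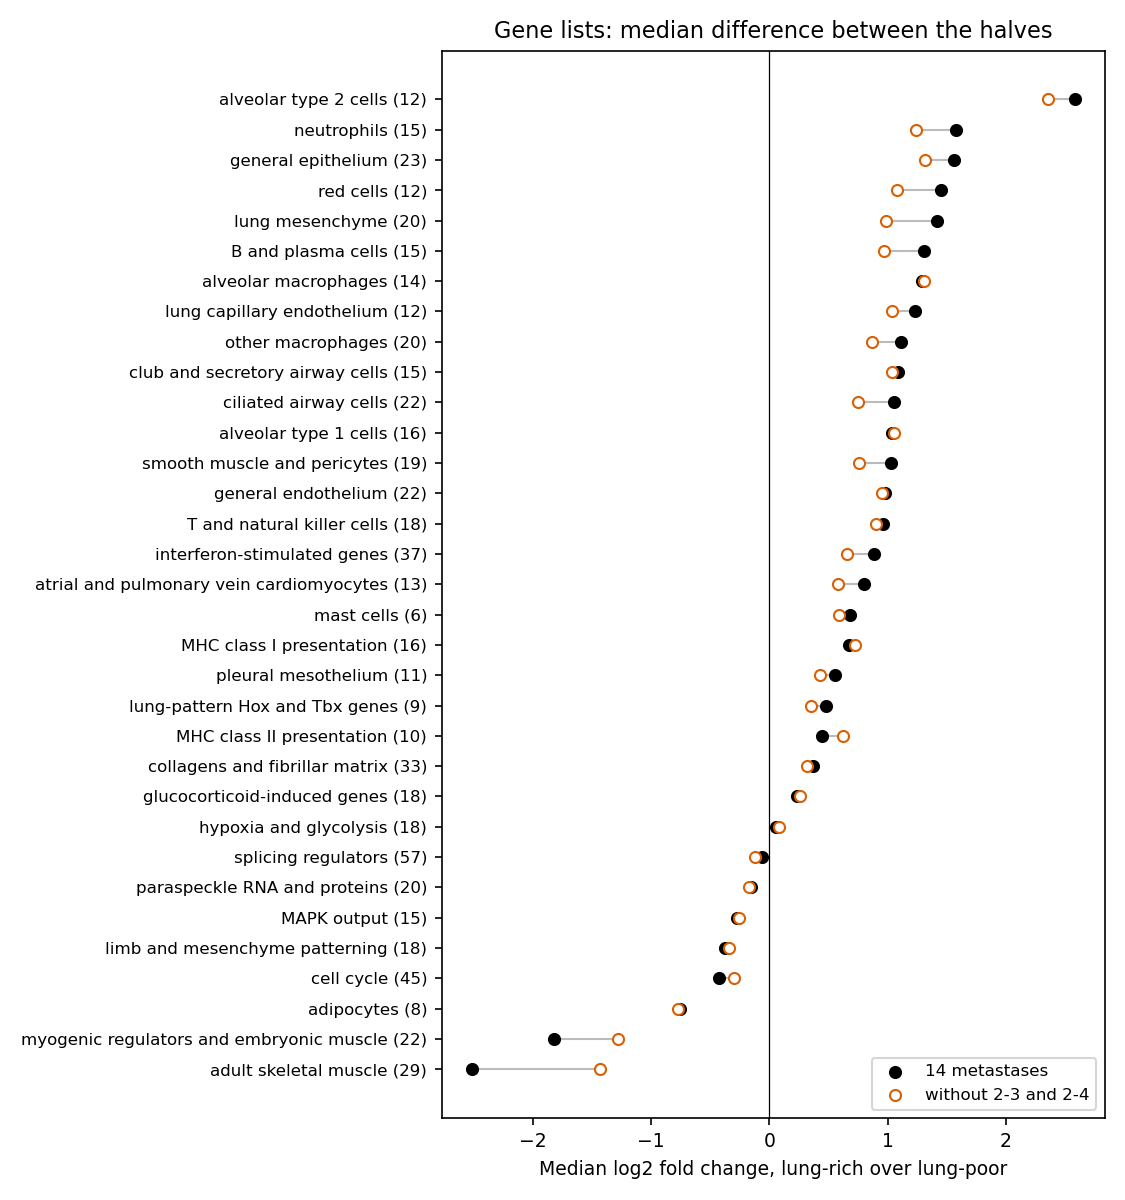
Median log2 fold change of lung-rich over lung-poor metastases (x axis) for each gene list (y axis, with its number of tested genes), over 14 metastases (filled) and without 2-3 and 2-4 (open). Alveolar type 2 cells lie at 2.58, the other lists of lung, vessel, immune and blood cells and of lung-pattern Hox and Tbx genes lie between 0.48 and 1.58, and the skeletal muscle and myogenic lists lie at -2.51 and -1.82 and move toward 0 without the 2 libraries.

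Immune and blood cell lists leaned the same way without a single call in edgeR's comparison of the groups. DESeq2 called 4 alveolar macrophage, 4 B and plasma cell, 2 mast cell and 1 T and natural killer cell genes higher, beside 181 of all 17256 genes, and at an unadjusted p under 0.05 edgeR had 7, 9, 2 and 7 of them, beside 989 of all. Neutrophil genes were positive in 14 of 15 (median 1.58), red cell genes in 10 of 12 (1.45), B and plasma cell genes in 15 of 15 (1.31), alveolar macrophage genes in 13 of 14 (1.29), other macrophage genes in 20 of 20 (1.11) and T and natural killer cell genes in 15 of 18 (0.96). With the score as a continuous term, 8 of the 15 B and plasma cell genes were called higher, 6 of 14 for alveolar macrophages, 5 of 18 for T and natural killer cells, 3 of 15 for neutrophils, 1 of 20 for other macrophages and 0 of 12 for red cells, against 3.69% of all genes. Without 2-3 and 2-4 these counts were 6 of 16, 3 of 15, 1 of 21, 1 of 15, 0 of 20 and 0 of 12, against 2.14%, and the medians between the groups were 0.97, 1.31, 0.90, 1.24, 0.86 and 1.08. Those groups of cells live in normal lung as well as in tumours, and which of them the transcripts came from cannot be told apart here.

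Plasma and T cell genes had some of the larger immune fold changes, none of them called by edgeR between the groups. Jchain, which joins secreted IgA and IgM, ranged from 3.77 through 69.97 to 383 CPM in lung-rich and from 0.932 through 13.3 to 24.2 CPM in lung-poor metastases. Its log2 fold change was 3.46 (SE 0.88, edgeR adjusted p = 0.325), and 3.02 without 2-3 and 2-4. Mzb1, a chaperone of antibody-secreting cells, had a log2 fold change of 2.55 (SE 0.67, adjusted p = 0.325), and 2.18 without those libraries. Cd3g, a subunit of the T cell receptor complex, had 2.07 (SE 0.53, adjusted p = 0.325), and 1.71 without them.

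H2-Ob, a chain of the chaperone that tunes peptide loading of MHC class II in B cells, was low in all metastases. Its ranges in the groups nearly met, and how many of all genes had separate ranges was not counted. It ranged from 1.79 through 2.13 to 4.57 CPM in lung-rich and from 0.5681 through 1.18 to 1.59 CPM in lung-poor metastases, with a log2 fold change of 1.12 (SE 0.32, edgeR adjusted p = 0.375). Its lowest lung-rich value came from 1-2 and its highest lung-poor value from 6-1, whose near copy 6-2 had 1.93 CPM in the lung-rich group. Class II genes as a list were positive in 10 of 10, with a median of 0.45.

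Macrophage genes divided the metastases in a way that only partly followed the score. Lyz2, lysozyme, ranged from 200.01 through 2374 to 3523 CPM in lung-rich and from 112 through 202 to 1663 CPM in lung-poor metastases. Both lung-poor metastases of set 1, with 1412 and 1663 CPM, stood with the lung-rich ones, and the lung-rich 6-2, with 200.01 CPM, stood with the lung-poor ones. The index of 20 macrophage genes was 5.88 to 7.35 in sets 1, 4 and 5 and in 2-1 and 2-2, and 3.52 to 5.16 in sets 3 and 6 and in 2-3 and 2-4.

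**Figure D3:**
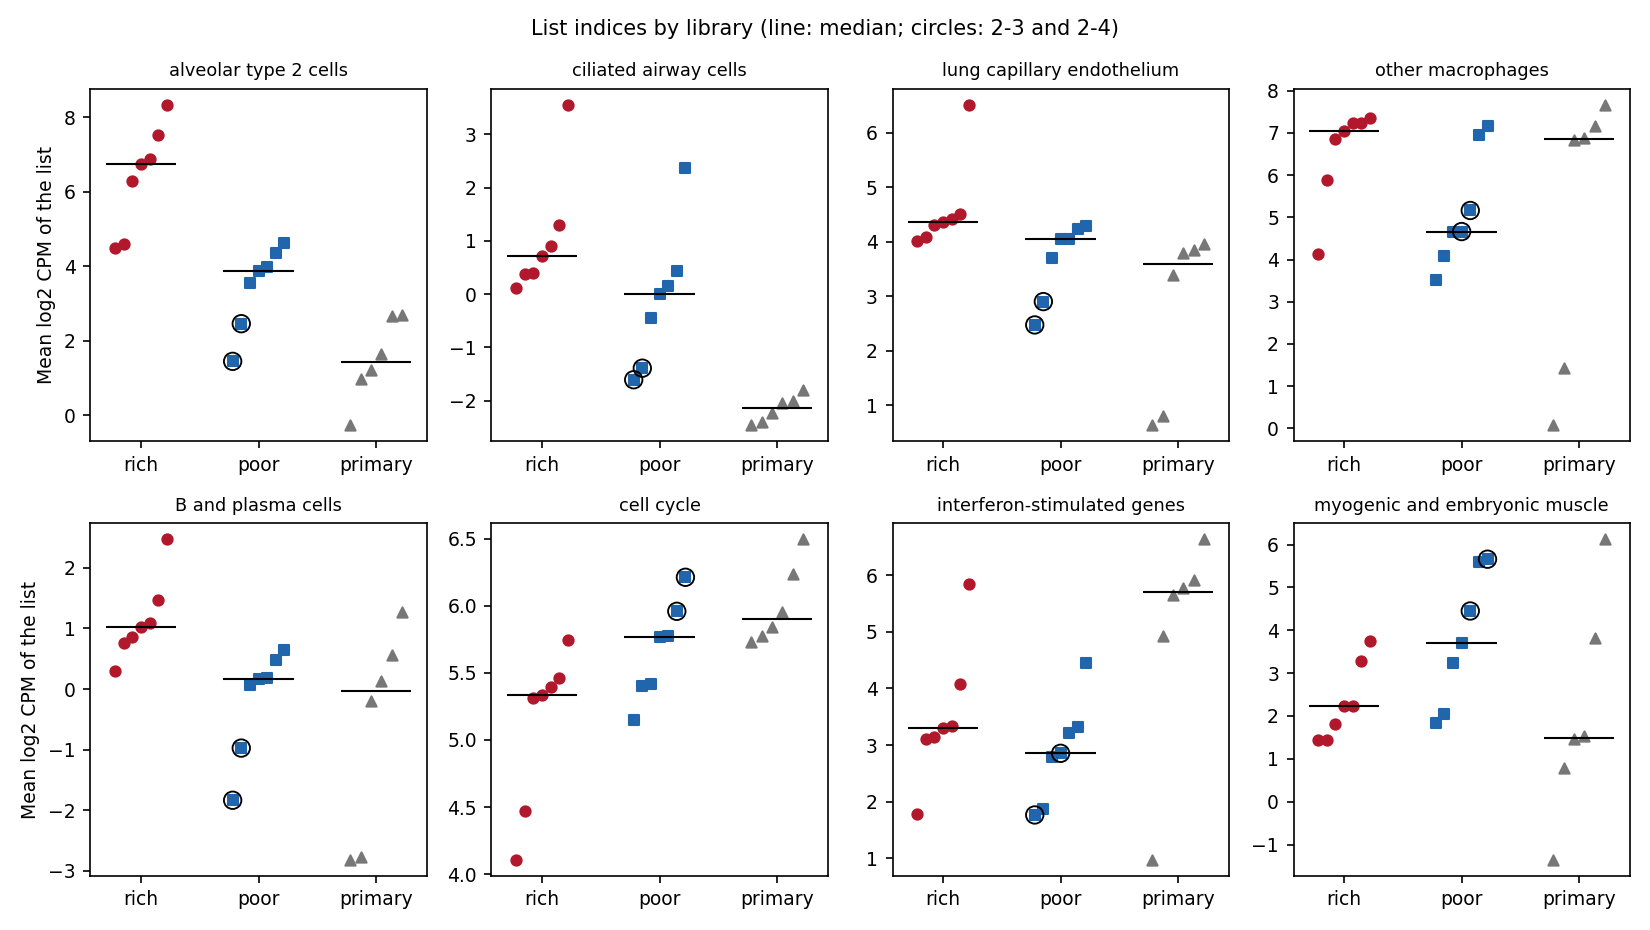
Mean log2 CPM (y axes) of 8 gene lists in each library of the lung-rich, lung-poor and primary groups (x axes), with the group median as a line and 2-3 and 2-4 circled. Type 2 cell indices overlap between the groups only between 4.48 and 4.62, whereas macrophage and interferon indices overlap over most of their range.

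Fold changes of muscle genes were mostly negative, and their size followed a few libraries. Between the groups edgeR called 0 of them, and DESeq2 called 2 adult muscle and 6 myogenic genes lower. An unadjusted p below 0.05 in edgeR was reached by 17 and 13 lower and 1 and 0 higher genes. Of all 17256 genes, 858 were lower and 989 higher at that p, and DESeq2 called 87 lower. Genes of adult skeletal muscle had negative fold changes in 26 of 29 (median -2.51) and myogenic and embryonic muscle genes in 21 of 22 (median -1.82). Without 2-3 and 2-4 the medians were -1.43 and -1.28, and with the matched set as a replicate block they were -0.82 and -1.14. With the groups ranked by the 69 other lung epithelium genes they were -0.36 and -0.60. The continuous score called 2 and 4 of them lower, against 1.33% of all genes. Muscle genes can come from sarcoma cells with muscle features or from host muscle, and these sources cannot be told apart.

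Myog, the transcription factor that drives myoblast differentiation, ranged from 0.148 through 0.718 to 9.02 CPM in lung-rich and from 0.378 through 8.39 to 352 CPM in lung-poor metastases. It was highest in 2-3 (352 CPM), 3-1 (78.6 CPM) and 2-4 (27.7 CPM), and the 2 lung-poor metastases of set 1 were as low as the lung-rich ones. Its log2 fold change was -4.72 (SE 1.48, edgeR adjusted p = 0.385), and -2.84 without 2-3 and 2-4. Mymk, the membrane protein needed for myoblast fusion, and Myh8, the perinatal myosin, had log2 fold changes of -4.60 and -4.85, and -3.05 and -4.70 without 2-3 and 2-4. Metastasis 3-1 held the most Myh8 (439 CPM), and in the ranking by other lung epithelium genes, which moves 3-1 to the lung-rich group, its fold change turned to 0.62. DESeq2 called Myh8 (adjusted p = 0.01), and edgeR did not (adjusted p = 0.376). Within sets the myogenic index of lung-rich minus lung-poor was -2.29 in set 2, -0.32 in set 1 and 0.05 in set 6, and that of adult skeletal muscle was -1.81, 0.52 and 0.05.

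Jph1, which couples the surface membrane to calcium stores in muscle, and Mcm3, a subunit of the replicative helicase, both lie in the first 30 Mb of chromosome 1, which was high in 2-3. Jph1 reached 219 CPM and Mcm3 1003 CPM, both in 2-3, against medians of 13.7 and 122 CPM in lung-poor and 3.80 and 67.5 CPM in lung-rich metastases. Their log2 fold changes were -3.34 and -1.88, and -1.83 and -0.75 without 2-3 and 2-4. Of the 84 tested genes of that region, 20 were among the 229 lower with the continuous score and 2 were among the 636 higher. Their median log2 fold change between the groups was -1.01, and without 2-3 and 2-4 it was -0.49 over 86 genes.

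Pck1, the gluconeogenic enzyme of liver and fat, had a fold change that depended on those 2 libraries. It ranged from 0.0298 through 0.498 to 0.890 CPM in lung-rich and from 0.118 through 0.922 to 415 CPM in lung-poor metastases. The log2 fold change was -7.31 (SE 1.76, edgeR adjusted p = 0.325) with all 14 metastases and -3.82 without 2-3 and 2-4, where the highest lung-poor value was 29.9 CPM. Alb moved from -8.89 to 1.25.

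Fold changes of cell cycle genes were negative and small, with none called between the groups. All 45 had negative fold changes, with a median of -0.43, and -0.30 with 42 of 45 negative without 2-3 and 2-4. Neither edgeR nor DESeq2 called any of the 45 between the groups. At edgeR's unadjusted p under 0.05, 5 of 45 were lower, beside 858 of all 17256 genes. The continuous score called 1 lower, beside 229 of all. Foxm1, the transcription factor of mitotic genes, ranged from 10.7 through 25.8 to 78.6 CPM in lung-rich and from 25.0 through 70.1 to 179.7 CPM in lung-poor metastases, with a log2 fold change of -1.33 (SE 0.50, edgeR adjusted p = 0.409), and -0.87 without 2-3 and 2-4. Mki67, the proliferation antigen Ki-67, which was chosen after its values were seen, had medians of 157 and 217 CPM, ranges of 47.6 to 393 and 132 to 486 CPM, and a log2 fold change of -0.64 (SE 0.41). The lowest cell cycle indices were those of 1-2 (4.11) and 1-1 (4.47), and the index of lung-rich minus lung-poor metastases was -0.99 in set 1, -0.66 in set 2 and -0.03 in set 6.

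Interferon-stimulated genes and antigen presentation leaned toward the lung-rich metastases. Interferon-stimulated genes were positive in 36 of 37 (median 0.89, and 0.66 without 2-3 and 2-4) and class I genes in 16 of 16 (median 0.67, and 0.73). Between the groups edgeR called 0 of either list. At its unadjusted p under 0.05, 2 of 37 and 4 of 16 were higher, beside 989 of all 17256 genes. The slope of the interferon list on the score was not stable, since 10 of 37 genes were positive, with a median of -0.15 per standard deviation, once 2-3 and 2-4 were left out. Cxcl9, the interferon-gamma induced chemokine for T cells, ranged from 0.564 through 2.45 to 11.8 CPM in lung-rich and from 0.511 through 0.627 to 1.504 CPM in lung-poor metastases. It was highest in 2-1 (11.8 CPM) and 4-1 (11.6 CPM), and its log2 fold change was 2.73 (SE 0.63, edgeR adjusted p = 0.325, DESeq2 adjusted p = 0.00142). H2-K1, a class I heavy chain, had medians of 148 and 82.8 CPM and a log2 fold change of 1.07 (SE 0.46, adjusted p = 0.439).

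Neat1, the RNA scaffold of paraspeckles, the nuclear bodies that hold RNA-binding proteins, lies on chromosome 19 from 5824708 to 5845478 on the minus strand. It ranged from 755 through 1253 to 3911 CPM in lung-rich and from 1197 through 3083 to 4309.9 CPM in lung-poor metastases. The 4 highest libraries were 3-2, 6-1, 3-1 and 6-2, all at 3911 CPM or more, and of these 6-2 is lung-rich. The log2 fold change was -0.80 (SE 0.41, edgeR adjusted p = 0.492), -1.06 without 2-3 and 2-4, and -0.35 with the matched set as a block. Within sets the difference was -0.27, -0.40 and -0.08 in sets 1, 2 and 6.

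Its partners hardly differed. Malat1, the neighbouring nuclear RNA, had medians of 7652 and 7466 CPM and a log2 fold change of -0.14 (SE 0.33). Sfpq, Nono and Pspc1, the core paraspeckle proteins, had log2 fold changes of -0.11 (SE 0.22), -0.24 (SE 0.20) and -0.00 (SE 0.16), and Khsrp, a splicing factor, -0.13 (SE 0.32). The paraspeckle list had a median of -0.15 over 20 genes and splicing regulators of -0.06 over 57 genes, with 0 called in either by edgeR or DESeq2 between the groups. At an unadjusted p under 0.05 edgeR had 0 of the 20, and 1 higher and 3 lower of the 57, beside 989 higher and 858 lower of all 17256 genes. Rbfox2, a splicing factor of muscle and mesenchymal cells, had medians of 229.9 and 401 CPM and a log2 fold change of -0.63 (SE 0.20, edgeR adjusted p = 0.385, DESeq2 adjusted p = 0.118). The continuous score called it lower only with the matched set as a replicate block (adjusted p = 0.033).

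Within sets, the lung score separated tissue content in sets 1 and 2 and not in set 6. The type 2 cell index of lung-rich minus lung-poor metastases was 2.29 in set 1, 4.86 in set 2 and -0.02 in set 6. An interaction test in edgeR over the 8 metastases of sets 1 and 2 called 687 of 17214 genes (3.99%) for a difference between the sets, 441 with a higher and 246 with a lower lung-rich minus lung-poor difference in set 2 than in set 1. Of the macrophage genes 13 of 20 were called with a higher difference in set 2, and the list's median interaction was 2.61. Lyz2 differed by 0.09 in set 1 and 4.28 in set 2 (interaction 4.02, adjusted p = 0.0252). Tnnt2, troponin T of heart and embryonic muscle, went the other way, at 1.41 and -4.04 (interaction -5.96, adjusted p = 0.0358). The lung-poor side of set 2 is 2-3 and 2-4, so the interaction compares those 2 libraries with the rest and has no form without them.

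Each group was also compared with the same 6 primary tumours, in 1 fit with the matched set as a block. Sets 4 and 5 hold no lung-poor metastasis and set 3 no lung-rich one. Differences within sets thus came from partly different sets in the 2 comparisons. Metastases of 1 set were counted as separate samples. Since both comparisons share the primary tumours, their values are given side by side and not correlated. Lung-poor metastases had 1049 genes higher (5.69%) and 862 lower (4.67%) of 18452, and lung-rich metastases had 1173 higher (6.36%) and 730 lower (3.96%). Without 2-3 and 2-4 the counts were 429 higher (2.3%) and 226 lower (1.21%) of 18650 for lung-poor metastases, and 1216 higher and 692 lower (3.71%) for lung-rich ones. Without set 2, lung-poor calls were 103 and 39, and without set 1, lung-rich calls were 478 and 124. With metastases of 1 set and group summed, lung-poor calls were 281 and 150, and lung-rich calls were 822 and 347.

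Most epithelial and airway genes were above primary tumours in both groups. The score fixed which group holds more lung, so the counts for lung cells describe the choice of groups and are no test of it. Of 23 epithelial genes, 18 were higher in lung-poor and 23 in lung-rich metastases, beside 1049 and 1173 of all 18452 genes. For type 2 cells 1 and 11 of 12 were higher, for ciliated cells 10 and 17 of 24, for club cells 9 and 14 of 16, for neutrophils 1 and 10 of 15, and for red cells 6 and 10 of 12. Vessel genes did not share this: of 12 lung capillary genes 0 were higher and 1 lower in lung-poor metastases (median 0.25), and 2 higher in lung-rich ones (median 1.09). Of 22 general endothelial genes 1 was higher and 2 lower in lung-poor metastases (median -0.28), and 1 higher and 1 lower in lung-rich ones (median 1.05). The lung-poor and lung-rich counts without 2-3 and 2-4 were 14 and 23 of 23 for epithelium, 1 and 10 of 12 for type 2 cells, 6 and 18 of 25 for ciliated cells, 8 and 14 of 16 for club cells, 3 and 10 of 15 for neutrophils and 5 and 10 of 12 for red cells. Col4a3, a basement membrane collagen of the alveolus, had log2 fold changes of 4.96 (SE 0.53) in lung-poor and 6.14 (SE 0.54) in lung-rich metastases.

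Cell cycle genes were called lower than in primary tumours in lung-rich metastases, which does not by itself show a difference between the groups. In lung-rich metastases 24 of 45 were lower than in primary tumours (median -0.88), beside 730 of all 18452 genes (3.96%). In lung-poor metastases 0 of 45 were called by edgeR (median -0.24), beside 1049 higher and 862 lower of all. There an unadjusted p below 0.05 was reached by 2 higher and 8 lower genes, beside 2620 and 2286 of all 18452. DESeq2 called 2 lower, beside 1679 of all. Without 2-3 and 2-4 the lung-rich count was 19, without set 2 it was 4, and without set 1, which holds the 2 metastases with the lowest index, it was 0. Over all genes the lung-rich lower calls in these fits were 692, 155 and 124. Mki67 fell by 1.63 in lung-rich metastases (SE 0.30, edgeR adjusted p = 0.00299, and 0.0569 without set 1) and had a log2 fold change of -0.64 in lung-poor ones (adjusted p = 0.21). The direct comparison of the groups, above, called 0 of 45.

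Interferon and class I genes were lower than in primary tumours, with more calls in lung-poor metastases. Of 37 interferon-stimulated genes 25 fell in lung-poor metastases (median -2.30) and 8 in lung-rich ones (median -1.60), but without 2-3 and 2-4 the counts were 8 and 9. Without set 2 both were 0, where the lung-poor and lung-rich medians were -2.05 and -1.55. Lower calls over all genes were 862 and 730 of 18452, and 226 and 692 of 18650 without 2-3 and 2-4. Without set 2 they were 39 and 155 of 18332. For class I genes the counts were 8 and 2 of 16, and 4 and 3 without 2-3 and 2-4. Within sets the order was the opposite in set 6, where the interferon index was 0.98 in the primary tumour, 1.87 in 6-1 and 1.79 in 6-2 and the class I index 4.14, 4.36 and 4.51, and for class I in set 4, with 3.61 in the primary tumour and 4.16 in 4-1. B2m, the light chain of class I molecules, ranged from 783 through 938 to 1867 CPM in primary tumours, 167 through 305 to 424 CPM in lung-poor and 199.98 through 423 to 714 CPM in lung-rich metastases. Every metastasis lay below every primary tumour, and how many of all genes separated this way was not counted. The falls were 1.73 (edgeR adjusted p = 0.00146) and 1.38 (adjusted p = 0.00112) on the log2 scale. Cxcl9 fell by 4.23 in lung-poor metastases (adjusted p = 0.0233), a call lost without 2-3 and 2-4 (log2 fold change -3.73, adjusted p = 0.116), and had a log2 fold change of -2.02 in lung-rich ones (adjusted p = 0.26).

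Some differences from the primary tumours were of like size in both groups. Fkbp5, a co-chaperone of the glucocorticoid receptor that the hormone induces, ranged from 21.8 through 78.0 to 97.7 CPM in primary tumours, 186 through 316 to 361 CPM in lung-poor and 147 through 293 to 352 CPM in lung-rich metastases. The 14 metastases all lay above the 6 primary tumours, and how many of all genes separated this way was not counted. The rises were 1.89 (SE 0.18, edgeR adjusted p = 0.000561) and 1.90 (SE 0.18, adjusted p = 0.000212). Between the groups the log2 fold change was -0.11 (SE 0.20). Of 18 glucocorticoid-induced genes 4 rose in lung-poor and 7 in lung-rich metastases, and 4 and 6 without 2-3 and 2-4. Beside them, 1049 and 1173 of all 18452 genes rose, and 429 and 1216 of 18650 without 2-3 and 2-4.

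Several matrix and metabolic genes fell in both groups. Col1a2, a chain of type I collagen, had medians of 3602 CPM in primary tumours, 1184 in lung-poor and 1087 in lung-rich metastases, and fell by 1.77 in each (adjusted p = 0.000879 and 0.000289). Of 33 collagen and matrix genes 11 fell in lung-poor and 6 in lung-rich metastases, and 6 in each without 2-3 and 2-4. Beside them, 862 and 730 of all 18452 genes fell, and 226 and 692 of 18650 without 2-3 and 2-4. Pycr1, an enzyme of proline synthesis, fell by 1.91 and 1.78, and Chn1, a Rac-regulating chimaerin, by 2.35 and 2.17. Il1rl1, the receptor of interleukin-33, fell by 6.32 in lung-poor (SE 0.85, edgeR adjusted p = 0.00201) and by 4.61 in lung-rich metastases (SE 0.87, adjusted p = 0.0039). The lung-rich call was lost without set 2 (edgeR adjusted p = 0.0548) and with metastases of 1 set and group summed (0.0555). Set 4 showed no fall, at 12.03 CPM in primary tumour 4 and 12.81 CPM in 4-1. The other primary tumours held 73.2 to 695 CPM, and the other lung-rich metastases 2.43 to 30.1 CPM. Between the groups the log2 fold change of Il1rl1 was 1.10 (SE 0.54, adjusted p = 0.483).

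Ano1, a calcium-activated chloride channel, rose by 2.36 and 2.27 in lung-poor and lung-rich metastases, Gdpd2, a glycerophosphodiester phosphodiesterase, by 3.80 and 3.85, and Csad, an enzyme of taurine synthesis, by 1.59 and 1.39 (each called by edgeR). Neat1 ranged from 309 through a median of 643 to 1441 CPM in primary tumours. It rose by 1.99 in lung-poor metastases (SE 0.45, edgeR adjusted p = 0.015). In lung-rich metastases its log2 fold change was 1.23 (SE 0.39, adjusted p = 0.0603). Without 2-3 and 2-4 these values were 2.15 (adjusted p = 0.0471) and 1.21 (adjusted p = 0.085), and the direct comparison of the groups did not call it. The lung-poor call was lost with metastases of 1 set summed (adjusted p = 0.0631), without set 1 (0.0672) and without set 2 (0.134). The lung-rich rise was called by DESeq2 (adjusted p = 0.0112), without a filter on low counts (2.29e-06), without set 4 (0.0106) and without 3-2, 4-1 and primary tumour 4 (0.00991). Set 4 went the other way, at 1441 CPM in primary tumour 4 and 755 CPM in the lung-rich 4-1.

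**Figure D4:**
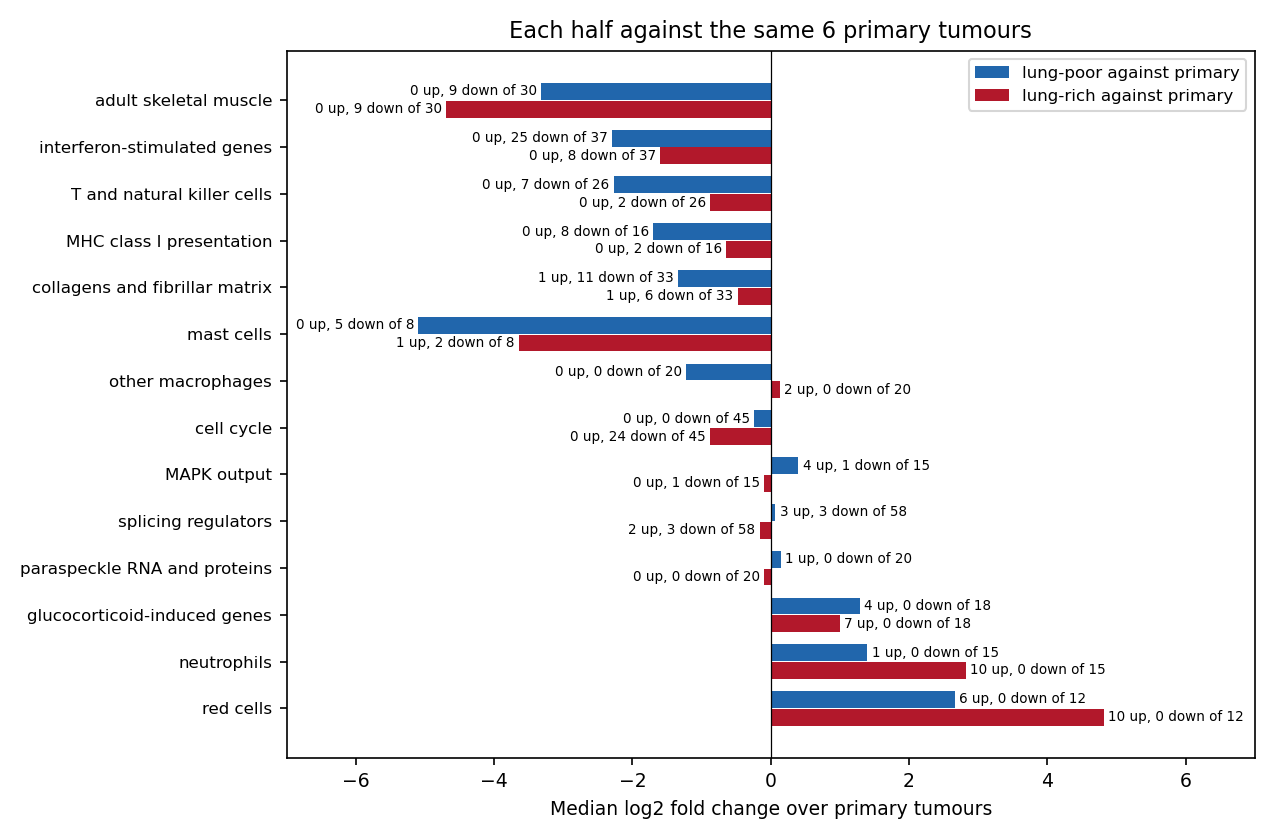
Median log2 fold change over the same 6 primary tumours (x axis) of 14 gene lists (y axis) in lung-poor and lung-rich metastases, with the number of genes called higher and lower beside each bar. Cell cycle genes have 0 and 24 of 45 called lower, interferon-stimulated genes 25 and 8 of 37, and glucocorticoid-induced genes 4 and 7 of 18 called higher.

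**Figure D5:**
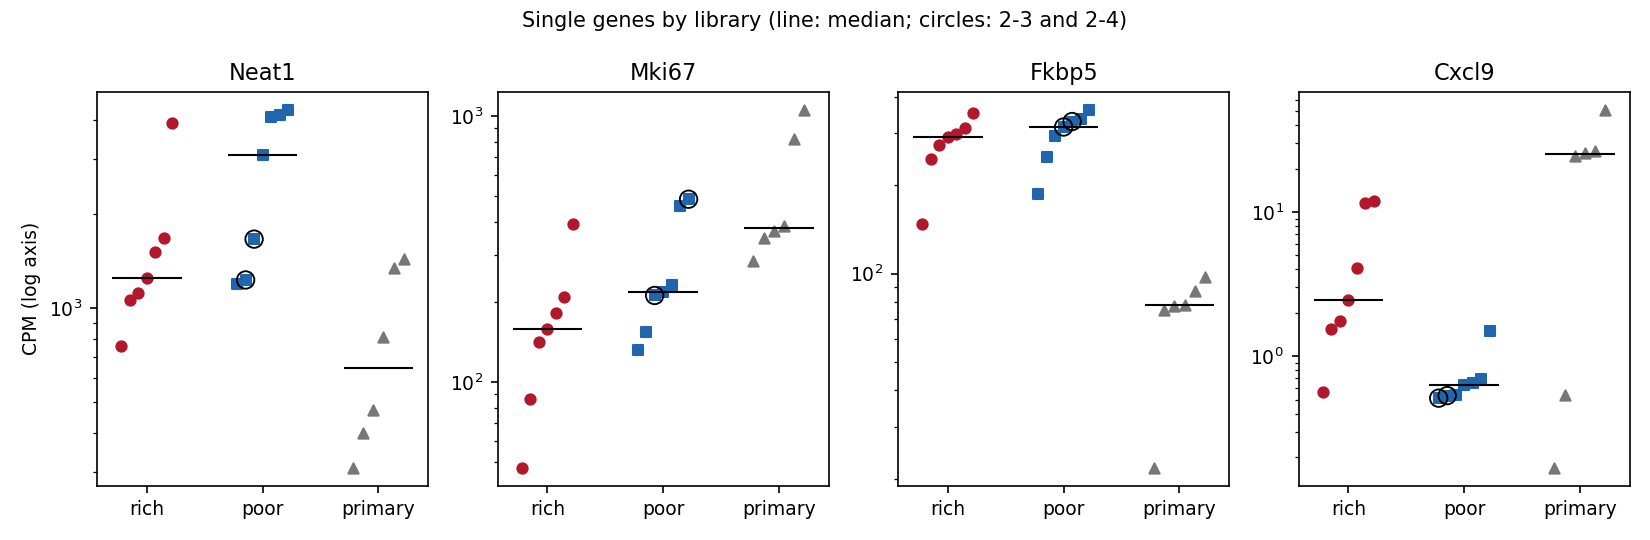
CPM on a log axis (y) of Neat1, Mki67, Fkbp5 and Cxcl9 in each library of the lung-rich, lung-poor and primary groups (x), with group medians as lines and 2-3 and 2-4 circled. Fkbp5 lies between 147 and 361 CPM in all 14 metastases and at most at 97.7 CPM in the primary tumours, whereas Neat1 and Mki67 overlap between the lung-rich and lung-poor metastases.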

How the data were processed

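Libraries were stranded, from RNA of a Direct-zol kit (per the labels' protocols), and depleted of ribosomal RNA. Tools were Trimmomatic 0.36, STAR (version written as 5.5.4b) and HTSeq with mm10, per the submitters' processing notes. Annotation release and strand setting: not given in the sources used here. Overlapping and antisense genes are therefore uncertain. The authors deposited raw counts for 51826 genes in 20 libraries (20603620 to 36824370 counts). Symbols and positions came from the GENCODE M21 annotation of GRCm38 (51633 IDs matched, 47648 with the same version, and the rest hold 0.017% of counts).

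Groups followed the labels and the lung score. Counts were tested with edgeR 4.0.16 in R 4.3.3 (robust quasi-likelihood, TMM over 20 libraries, minimum count 10, Benjamini-Hochberg threshold 0.05): 14 metastases without a block, and 20 libraries with the matched set as a block. DESeq2 1.42.0 and limma 3.58.1 (voom) were alternatives, with other scores, filters, blocks and left-out sets and libraries. Pipelines were tested on simulated data. The members and the 34 lists (700 of 701 symbols found) were chosen with earlier results of these data known. Pairing comes from the primary tumour number that a metastasis carries in its label. Over 1000 genes, deviations of metastases of 1 set correlated at a mean of 0.30 (14 pairs, lowest -0.21), against -0.13 for 77 other pairs.

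Named genes were the 3 of smallest p in each list, Neat1, Malat1, Khsrp, Sfpq, Nono and Pspc1, the 8 largest rises and falls between the groups had any been called, and, for lung-poor metastases against primary tumours, the 6 genes of smallest p in either direction.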

Additional observations from a re-analysis of the deposited data

Results flagged for a closer look

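List indices (mean log2 CPM) were searched for single libraries far from the rest of their group. Of 105 groups tested, 15 held such a library. The groups share libraries and are not independent, and the number that chance would give was not worked out.

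Metastasis 1-1 stood above the other 6 lung-rich metastases in ciliated cell genes (3.55 against 0.12 to 1.31), capillary genes (6.51 against 4.02 to 4.51), lung mesenchyme (6.01 against 3.36 to 3.90), mesothelium (3.31 against 1.27 to 2.15) and lung-pattern Hox and Tbx genes (1.29 against -0.23 to 0.39). Metastasis 6-2 was highest among lung-rich metastases in MAPK output genes (6.39 against 5.46 to 5.81). Among lung-poor metastases, 2-4 was lowest in mesothelial genes (-0.42 against 1.15 to 1.88) and 3-1 highest in atrial and pulmonary vein cardiomyocyte genes (3.41 against -0.68 to 0.85).

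Primary tumour 4 was lowest of the primary tumours in club cell genes (-3.36), collagens (5.82), glucocorticoid-induced genes (3.28), MAPK output (5.55) and limb patterning (0.82), and highest in splicing regulators (5.48 against 4.72 to 4.93). Primary tumour 6 was lowest in interferon-stimulated genes (0.98 against 4.92 to 6.63).

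The difference between lung-rich and lung-poor metastases differed between sets 1 and 2 for 687 of 17214 genes in edgeR's interaction test.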

How the results depend on the processing

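In lung-rich against lung-poor metastases, edgeR called 0 genes under every alternative except DESeq2 (181 higher, 87 lower), the continuous score (636 and 229), the continuous score with the replicate block (874 and 301) and the continuous score without 2-3 and 2-4 (382 higher and 0 lower). Unadjusted p under 0.05 gave 1028 higher and 573 lower genes with the replicate block of matched set alone (0 called), 1637 and 2809 without a filter on low counts, 1241 and 1513 for the 5 highest against the 5 lowest, and 602 and 285 without 2-3 and 2-4. It gave 559 and 62 without set 2, and 985 and 133 with the adult skeletal muscle index as a covariate. Lung-poor metastases against primary tumours gave 2095 higher and 1679 lower genes with DESeq2, 2558 and 1621 with no filter, 281 and 150 with metastases of 1 set and group summed, 429 and 226 without 2-3 and 2-4, 612 higher without 6-1 and 6-2, and 1334 lower without 3-2, 4-1 and primary tumour 4. Leaving out 1 set at a time gave 103 to 1125 higher and 39 to 1037 lower. The lowest values came without set 2, and set 1 (458 and 311), set 3 (566 lower) and set 6 (624 higher) also moved a count by over 1.5 times. Lung-rich metastases against primary tumours gave 2136 and 1493 with DESeq2, 2530 and 1176 with no filter, 347 lower with sums and 453 lower without 6-1 and 6-2. Leaving out 1 set gave 478 to 1549 higher and 124 to 1217 lower, with set 1 (478 and 124), set 2 (577 and 155), set 3 (1217 lower) and set 6 (469 lower) past 1.5 times. Without the block the counts were 1039 and 801, and 903 and 606. For the single genes named between lung-rich and lung-poor metastases, 497 of 531 values kept direction and side of the threshold and 34 crossed into a call, while 22 uncalled values changed sign. Against primary tumours, 179 of 182 lung-poor and 175 of 182 lung-rich values kept direction and side of the threshold, and none reversed. The causes of these changes were not tested. Chosen after seeing the data were the interaction, the hepatocyte list, the block on the continuous score and the alternatives that leave out named libraries.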

Other observations

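Gene lists not described above had no called gene between lung-rich and lung-poor metastases in edgeR's comparison (DESeq2 called 2 mast cell genes higher and 1 adipocyte and 1 limb patterning gene lower). At an unadjusted p under 0.05 the most were 4 of 19 smooth muscle and pericyte genes higher and 4 of 15 MAPK output genes lower. Beside them, 989 of all 17256 genes were higher and 858 lower. Median log2 fold changes were 1.03 for smooth muscle and pericytes, 0.80 for atrial and pulmonary vein cardiomyocytes, 0.68 for mast cells, 0.48 for lung-pattern Hox and Tbx genes, 0.37 for collagens, 0.23 for glucocorticoid-induced genes, 0.05 for hypoxia and glycolysis, -0.27 for MAPK output, -0.38 for limb patterning and -0.75 for adipocytes. The adipocyte median was 0.30 with the matched set as a block. Against primary tumours, 5 of 8 mast cell genes fell in lung-poor metastases and 2 in lung-rich ones (medians -5.10 and -3.64), and 0 were called lower in either without 2-3 and 2-4 (medians -4.55 and -3.63). Over all genes 862 and 730 of 18452 fell, and 226 and 692 of 18650 without 2-3 and 2-4. The mast cell index was lower in primary tumours 4 (-3.71) and 6 (-3.41) than in their metastases (0.14 in 4-1, -0.76 in 6-1 and -0.74 in 6-2). Cpa3, the carboxypeptidase of mast cell granules, had a median of 16.0 CPM in primary tumours, 0.482 in lung-poor and 0.552 in lung-rich metastases, and without 2-3 and 2-4 its log2 fold changes were -5.24 and -4.52. Of 15 MAPK output genes, 4 rose in lung-poor metastases and 0 in lung-rich ones, and 0 in either without 2-3 and 2-4. Over all genes 1049 and 1173 of 18452 rose, and 429 and 1216 of 18650 without 2-3 and 2-4. Spry4, a feedback inhibitor of the pathway, had medians of 67.9, 155 and 55.2 CPM in primary, lung-poor and lung-rich libraries. The difference between the groups was -0.90 for Spry4 on the log2 scale (SE 0.41, edgeR adjusted p = 0.455).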
